A study of Mus musculus with 14 samples.

Results

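The genes described here encode enzymes that break down amino acids in the liver, from the aminotransferases that remove the amino group to the enzymes that degrade the carbon skeletons of tyrosine, tryptophan, histidine, proline, ornithine, the sulfur amino acids, lysine and the branched-chain amino acids. The list holds 33 genes, chosen by name and by the amino acid each degrades, by a rule that uses no measured value. Of these, 31 had at least 1 probe set that the platform's table pairs with that gene symbol alone, giving 52 of the 45101 probe sets on the array. The probe set of highest mean signal stood for each gene. Sds and Sdsl, which encode serine and threonine dehydratases, were not analysed here.

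The livers came from 14 male CBA/J mice, each measured on its own Affymetrix array. The animals lived in individual cages on a ration of 84 kcal per week of diets built on the AIN93M formula, and 7 mice per diet were measured. The control group ate the control diet, and the krill group ate a diet with a krill powder extract from 2 months of age for 3 months, until the tissue was taken at 5 months. Total protein and total lipid were equal in both diets, while the amino acids and the fatty acids that made them up were not. RNA came from whole liver, so a change in the number of cells of a type and a change in the RNA per cell cannot be told apart.

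The liver is the main site at which dietary amino acids in excess of the need for protein synthesis are oxidised. Aminotransferases and deaminases pass the nitrogen towards urea, and the remaining carbon enters gluconeogenesis, ketone body formation or the citric acid cycle. Many of these enzymes are most abundant in periportal hepatocytes, and several respond to dietary protein, glucagon and glucocorticoids.

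Array quality differed between the diets. Hybridisation spike-ins, control transcripts added to every sample, had a mean log2 signal of 12.9 ± 0.217 (SD, n = 7) on control arrays and 13.7 ± 0.619 (n = 7) on krill arrays (exact permutation test, two-sided, p = 0.0128, adjusted over 5 quality measures p = 0.0160). Krill replicates 2, 4, 5 and 7 lay above every control array in that measure, and the change of each called enzyme is also given without them. The ratio of the 3′ to the 5′ probe set of actin was 2.09 ± 0.242 on control and 2.98 ± 0.493 on krill arrays, and that of pyruvate carboxylase was 6.55 ± 2.34 and 18.3 ± 5.69. Neither of these ratios overlapped between the diets (both exact p = 0.000583, which is the lowest p possible over 3432 assignments, and adjusted p = 0.00146). The diet and this sign of RNA or labelling quality therefore cannot be told apart. The same ratio of Gapdh did overlap, at 0.806 ± 0.0496 on control and 0.964 ± 0.33 on krill arrays (exact permutation test, p = 0.198). The poly-A spike-ins, another set of control transcripts, had a higher mean on krill arrays (exact permutation test, p = 0.0122, adjusted p = 0.0160). As a background, the 95th percentile of 78 probe sets of olfactory and vomeronasal receptors was taken on each array, and 29 of the 31 enzymes were above it on all 14 arrays. It was 99.1 to 131 in signal on control arrays and 110 to 551 on krill arrays.

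The amino acid catabolic enzymes were mostly lower on the krill diet. Each gene was compared as log2(signal + 16), krill minus control, and called at a limma adjusted p under 0.05. In that fit over 11308 genes, 17 of the 31 enzymes fell (54.8%) and 5 rose (16.1%), with 9 not passing the test. Among all genes tested, 24.8% fell and 22.9% rose. The median log2 change of the enzymes was -0.53, where that of all genes was 0.04. The 5 that rose were Agxt, Gstz1, Tdo2, Haao and Hibadh, and the deepest falls were those of Aldh4a1, Got1, Fah and Hal. Among the enzymes the log2 change correlated with mean signal over all arrays (Spearman 0.64, and -0.13 over all genes tested). Without the 4 krill arrays of bright spike-ins these correlations were 0.67 and 0.16. The part of signal level in the split between risers and fallers was not tested. For 3 enzymes every krill liver exceeded every control liver (9.68%, beside 6.52% of all genes), and for 4 the krill livers were all below the controls (12.9%, beside 7.61%).

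All 17 falls kept their direction under quantile normalization, median centring and spike-in scaling. Of the 5 rises, Tdo2 turned under quantile normalization, and Agxt and Tdo2 under spike-in scaling. Centring and spike-in scaling lowered krill relative to control for genes in general, so they could turn a rise but not a fall. Quantile normalization also ended the calls of Kynu (-0.35, adjusted p = 0.0679) and Auh (-0.39, adjusted p = 0.0503), and centring those of Agxt (0.09, adjusted p = 0.753), Tdo2 (0.28, adjusted p = 0.223) and Haao (0.49, adjusted p = 0.0507). Centring each array on its median, which moved the median of all genes to -0.36, left 2 enzymes higher and 18 lower, and scaling on the spike-ins, which moved it to -0.71, left 0 higher and 25 lower (limma, also 0 higher at an unadjusted p under 0.05). Over all genes the split went from 2594 higher and 2803 lower to 1001 and 3728 with centring and to 334 and 5451 with spike-in scaling. With a 3′/5′ index (the actin and pyruvate carboxylase ratios, averaged as log2 values) as a covariate, limma called 0 of the enzymes and 0 of all genes in either direction, and at an unadjusted p under 0.05 it gave 1 enzyme higher and 3 lower, and 625 genes higher and 1248 lower. With that covariate the estimates of Ddc (0.62, limma adjusted p = 0.734), Cth (0.47, adjusted p = 0.727), Bckdhb (0.19, adjusted p = 0.902) and Ivd (0.041, adjusted p = 0.986) turned positive. None of these estimates was called, so they do not show a rise. Cth also turned with the spike-in level as a covariate (0.055) and without the 4 bright krill arrays (0.045).

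**Figure D1:**
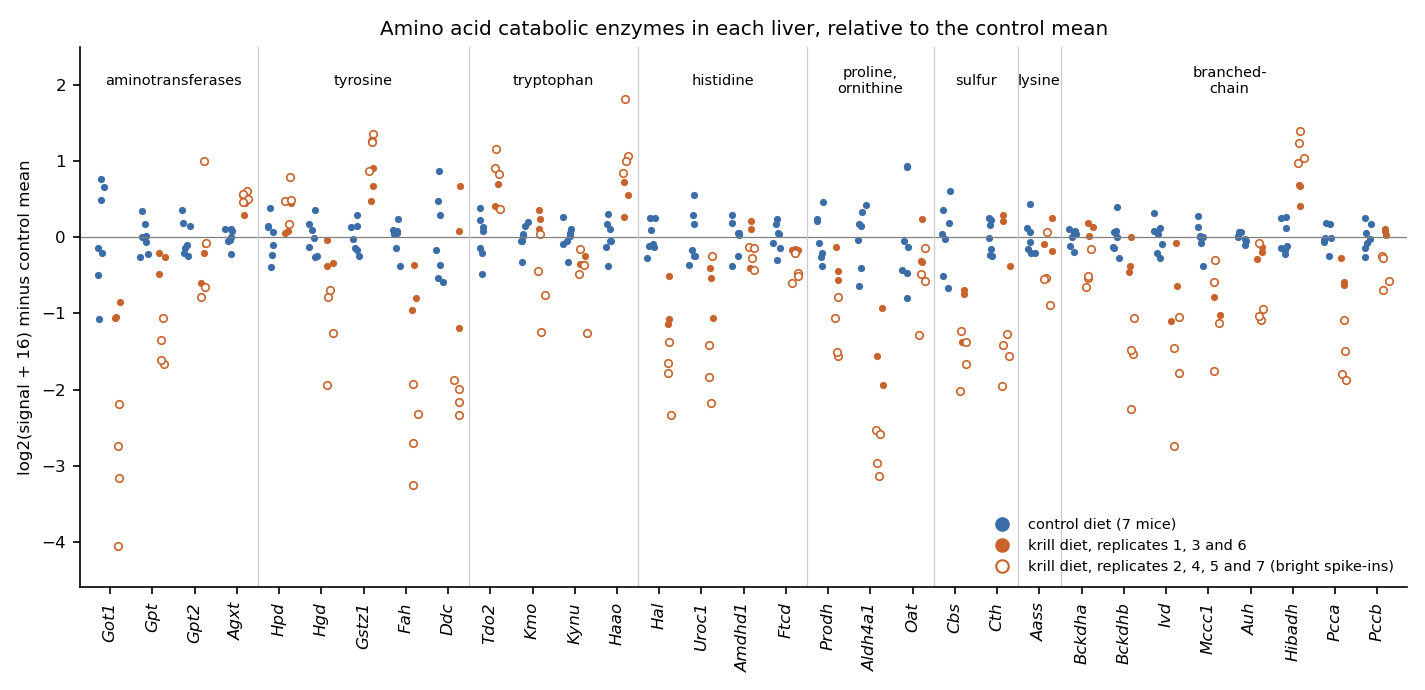
Log2(signal + 16) of each enzyme in each liver minus the mean of the 7 control livers (vertical axis, log2 units), with 1 point per mouse, grouped by the amino acid degraded; filled orange points are krill replicates 1, 3 and 6 and open ones krill replicates 2, 4, 5 and 7. Aldh4a1, Hal, Cbs and Pcca show every krill point under every control point, and Agxt, Gstz1 and Hibadh the reverse; the Agxt change turns to -0.30 when arrays are scaled on the spike-ins.

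The promoters of the 7 enzymes whose diets did not overlap are shown because these are the genes on which the contrast between the risers and the fallers is clearest in single livers. Each sequence covers the 150 bases before the annotated start, written 5′ to 3′ along the gene's strand, from the RefSeq annotation of the mouse reference assembly GRCm38.p6 rather than from the CBA/J animals. Capitals mark matches, on either strand, to the TATA box with the letters TATAAA, the box with the letters CCAAT, and the core bound by C/EBP factors, searched as TTGCNNAA. No motif overlaps another in these stretches. The genes are Agxt at chr1:93135090-93135239 on the plus strand, Gstz1 at chr12:87147015-87147164 on the plus strand, Hibadh at chr6:52640301-52640450 on the minus strand, Hal at chr10:93488618-93488767 on the plus strand, Aldh4a1 at chr4:139622744-139622893 on the plus strand, Cbs at chr17:31637206-31637355 on the minus strand and Pcca at chr14:122484215-122484364 on the plus strand.
Agxt: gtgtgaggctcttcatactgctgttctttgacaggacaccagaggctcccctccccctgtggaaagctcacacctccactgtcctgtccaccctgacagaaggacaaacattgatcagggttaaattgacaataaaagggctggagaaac
Gstz1: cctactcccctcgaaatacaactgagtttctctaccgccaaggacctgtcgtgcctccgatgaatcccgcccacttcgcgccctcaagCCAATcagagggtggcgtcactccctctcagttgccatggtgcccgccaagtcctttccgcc
Hibadh: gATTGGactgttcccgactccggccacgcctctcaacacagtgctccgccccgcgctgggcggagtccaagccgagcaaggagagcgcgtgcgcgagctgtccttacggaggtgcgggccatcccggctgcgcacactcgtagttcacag
Hal: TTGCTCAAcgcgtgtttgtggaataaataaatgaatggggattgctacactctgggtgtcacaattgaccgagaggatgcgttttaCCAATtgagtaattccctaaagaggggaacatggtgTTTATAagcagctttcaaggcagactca
Aldh4a1: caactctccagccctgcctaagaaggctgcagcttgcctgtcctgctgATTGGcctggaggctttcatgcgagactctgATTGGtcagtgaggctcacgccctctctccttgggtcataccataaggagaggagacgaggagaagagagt
Cbs: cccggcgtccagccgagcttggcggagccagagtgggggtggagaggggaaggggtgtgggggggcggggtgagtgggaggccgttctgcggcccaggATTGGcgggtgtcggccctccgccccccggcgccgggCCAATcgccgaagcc
Pcca: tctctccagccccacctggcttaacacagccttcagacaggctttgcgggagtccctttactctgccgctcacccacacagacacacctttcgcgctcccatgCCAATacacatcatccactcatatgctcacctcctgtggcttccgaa
Of the 3 that rose, the Gstz1 and Hibadh promoters hold a CCAAT box and the Agxt stretch holds none of the motifs. Of the 4 that fell, all hold at least 1 CCAAT box, and the Hal promoter holds all 3 motifs. The share over all promoters was not counted for the 150 bases shown, so these counts have no like share beside them. In the 250 bases before the start, a CCAAT box stood in 15 of the 28 enzyme promoters that could be matched (53.6%) and in 34.5% of 27025 mouse promoters. A TATA box stood in 5 enzyme promoters (17.9%, beside 13% of all) and the C/EBP core in 3 (10.7%, beside 9.55%). A match of letters does not show that a factor binds.

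The aminotransferases, which use pyridoxal phosphate to move amino groups onto keto acids, divided by direction, with 1 higher, 2 lower and 1 not called among 4. Got1, the cytosolic aspartate aminotransferase, had a signal of 1975, 3773 and 7059 (lowest, median and highest) on control arrays and 236, 897 and 2297 on krill arrays. The highest krill livers overlapped the lowest control liver, and 4 of 7 krill livers lay below all controls. Got1 fell 4.46-fold (log2 change -2.16, SE 0.44, limma adjusted p = 0.000731) and was above the receptor background on 13 of 14 arrays. Gpt, the cytosolic alanine aminotransferase, went from 5341 ± 799 to 2971 ± 1276 in mean signal (SD, n = 7 each). It fell by 0.95 on the log2 scale (SE 0.23, adjusted p = 0.0030), with 5 krill livers below all controls, but by 0.50 (adjusted p = 0.137) where its dim second probe set was averaged in. Without the 4 krill arrays of bright spike-ins the Gpt change was -0.31 (adjusted p = 0.120) and that of Got1 was -0.98 (adjusted p = 0.0285).

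Gpt2, the mitochondrial alanine aminotransferase, depended on the probe set read. Its brightest probe set had a median signal of 9524 on control and 8835 on krill arrays and a log2 change of -0.20 (SE 0.22, adjusted p = 0.464). In that probe set krill replicate 7 read 20442, far above the other krill livers, and without it the change was called, at -0.40 (adjusted p = 0.0490). The other 3 probe sets of Gpt2 were each called lower, at -1.40, -1.05 and -2.59 on the log2 scale. Agxt, the peroxisomal enzyme that detoxifies glyoxylate to glycine using alanine, moved the other way. Its signal was 11783, 13865 and 14868 (lowest, median and highest) on control arrays and 16831, 19495 and 20981 on krill arrays, with no overlap. The rise of Agxt was 1.40-fold (log2 change 0.49, SE 0.12, adjusted p = 0.0037) and was 0.43 without the 4 bright arrays (adjusted p = 0.0142). Scaling on the spike-ins turned it to -0.30 (adjusted p = 0.337).

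In the tyrosine pathway Gstz1 and Fah, enzymes of neighbouring steps, moved in opposite directions. Of its 5 members 1 rose, 3 fell and 1 was not called. Hpd, which converts 4-hydroxyphenylpyruvate to homogentisate, was not called, with a mean signal of 54928 ± 9798 on control and 70566 ± 13446 on krill arrays (log2 change 0.36, SE 0.16, adjusted p = 0.0711). It was called higher without control replicate 2 or krill replicate 1 or 6 (0.41 to 0.42, adjusted p from 0.0415 to 0.0474). Its sign turned under quantile normalization, to -0.31 (adjusted p = 0.0242). Hgd, the iron enzyme that opens the ring of homogentisate, fell by 0.78 (SE 0.24, adjusted p = 0.0121), from a median signal of 15274 to 9469, with 6 krill livers below all controls. The Hgd change was -0.25 without the 4 bright arrays (adjusted p = 0.236).

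Gstz1, the glutathione-dependent isomerase of maleylacetoacetate, rose. Its signal was 14541, 17027 and 21132 on control arrays and 23968, 32408 and 44051 on krill arrays (lowest, median and highest). The groups did not overlap, and the rise was 1.96-fold (log2 change 0.97, SE 0.16, adjusted p = 0.000154). It was 0.69 without the 4 bright arrays (adjusted p = 0.0033) and 0.18 when arrays were scaled on the spike-ins (adjusted p = 0.494). Fah, which splits fumarylacetoacetate in the very next step and is lost in hereditary tyrosinaemia, had a signal of 17892, 24259 and 27424 on control arrays and 2419, 6119 and 18056 on krill arrays. Only the highest krill liver reached the control range, and the other 6 lay below it. Fah fell 3.39-fold (log2 change -1.76, SE 0.35, adjusted p = 0.000611), and by 0.71 without the 4 bright arrays (adjusted p = 0.0041).

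Within single livers the log2 ratio of Gstz1 over Fah signal ran from -0.82 to 0.24 on the control diet and from 0.41 to 4.18 on the krill diet. The diets did not overlap, and the ratio differed by 2.73 (exact permutation test, two-sided, p = 0.000583, adjusted over 11 pairs p = 0.0016). Without the 4 bright arrays the difference was 1.39 (exact p = 0.0083, which is the lowest possible over 120 assignments, and adjusted p = 0.0229). The ratio of Hpd over Hgd differed by 1.13 (exact p = 0.0064, adjusted p = 0.0118), and by 0.44 without those arrays (exact test, adjusted p = 0.241). Ddc, the decarboxylase that makes dopamine and serotonin, fell by 1.26 (SE 0.41, adjusted p = 0.0182), from a median signal of 1639 to 491. Ddc signals spread widely, from 352 to 2943 on krill arrays, stood above the receptor background on 12 of 14 arrays, and gave a change of -0.14 without the 4 bright arrays (adjusted p = 0.797).

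Of the 4 tryptophan enzymes, all of the kynurenine pathway, 2 rose, 1 fell and 1 was not called. Theirs was the one group with a median above 0, at 0.22, and it turned to -0.18 under both quantile normalization and median centring and to -0.57 with spike-in scaling. Tdo2, the heme dioxygenase that commits tryptophan to the pathway, had a signal of 29656, 43955 and 54402 on control arrays and 53460, 67242 and 92632 on krill arrays. The krill livers reached down to the top of the control range, and 5 of 7 lay above it. Tdo2 rose 1.60-fold (log2 change 0.68, SE 0.17, adjusted p = 0.0038), and by 0.50 on the log2 scale without the 4 bright arrays (adjusted p = 0.0396), while quantile normalization gave -0.02 (adjusted p = 0.929) and spike-in scaling -0.11 (adjusted p = 0.696). All 3 of its probe sets were positive, at 0.68, 0.39 and 0.67, with the second not called. Haao, which makes the quinolinate precursor of NAD, rose 1.86-fold from a mean signal of 13039 ± 1951 to 25359 ± 9696 (log2 change 0.90, SE 0.20, adjusted p = 0.0013). Of the krill livers 6 lay above all controls for Haao, and its change was 0.52 without the 4 bright arrays (adjusted p = 0.0186).

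Between those steps, Kmo and Kynu did not rise. Kmo, the mitochondrial kynurenine hydroxylase, had a median signal of 9174 on control and 9343 on krill arrays (log2 change -0.24, SE 0.22, adjusted p = 0.371). Kynu, the pyridoxal phosphate enzyme that cleaves hydroxykynurenine, fell by 0.46 (SE 0.17, adjusted p = 0.0331), from a median signal of 3177 to 2444. This call was near the threshold and was lost without control replicate 2, 3, 6 or 7 or krill replicate 2 or 5, with changes from -0.46 to -0.33 (adjusted p from 0.0523 to 0.0719), and without the 4 bright arrays, at -0.32 (adjusted p = 0.0947). The ratio of Kynu over Haao within a liver ran from -2.39 to -1.80 on the control diet and from -5.11 to -2.67 on the krill diet. It differed by -1.36 (exact permutation test p = 0.000583, adjusted p = 0.0016) and by -0.84 without the 4 bright arrays (exact test, adjusted p = 0.0229). Averaging in a second Kynu probe set, which was above the receptor background on 0 arrays, ended this call (-0.16, exact test, adjusted p = 0.492).

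The histidine pathway fell at its first steps, with 2 of 4 lower and 2 not called. Hal, the ammonia lyase that makes urocanate, had a signal of 4359, 4981 and 6314 on control arrays and 1034, 2027 and 3719 on krill arrays. The diets did not overlap, and Hal fell 2.65-fold (log2 change -1.41, SE 0.22, adjusted p = 9.5e-05). Its fall was 0.90 without the 4 bright arrays (adjusted p = 0.0017), where krill replicates 1, 3 and 6 read between 2388 and 3719. Uroc1, the urocanate hydratase of the second step, fell by 1.09 (SE 0.27, adjusted p = 0.0034), with a median signal of 5734 on control and 3084 on krill arrays and 6 krill livers below all controls. Its change was -0.66 without the 4 bright arrays (adjusted p = 0.0232). A second, dimmer Uroc1 probe set fell by 2.13. Amdhd1, the imidazolonepropionase that follows, had a mean signal of 3379 ± 526 and 3047 ± 525 (log2 change -0.15, adjusted p = 0.428). Ftcd, which hands the formimino group to folate, was at -0.32 (SE 0.14, adjusted p = 0.0623) and was not called, but it was called lower under quantile normalization (-0.55, adjusted p = 0.0037), with median centring (-0.73, adjusted p = 0.0270) and without control replicate 5 (-0.37, adjusted p = 0.0391) or krill replicate 1 (-0.35, adjusted p = 0.0467). The ratio of Hal over Uroc1 differed by -0.31 between the diets, which did not pass the threshold (exact permutation test, adjusted p = 0.225).

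For proline and ornithine, 2 of 3 enzymes fell. Aldh4a1, the mitochondrial dehydrogenase that turns pyrroline-5-carboxylate into glutamate, fell furthest together with Got1, and the order of these 2 genes is within their errors. Its signal was 4239, 7313 and 8829 on control arrays and 739, 1124 and 3453 on krill arrays, with no overlap. The fall was 4.71-fold (log2 change -2.24, SE 0.29, adjusted p = 3.1e-05), and 1.48 on the log2 scale without the 4 bright arrays (adjusted p = 0.000984). Prodh, the proline dehydrogenase that supplies its substrate, fell by 0.86 (SE 0.22, adjusted p = 0.0041), from a mean signal of 4090 ± 904 to 2331 ± 847, and by 0.38 without those arrays, where it was not called (adjusted p = 0.133). The ratio of Prodh over Aldh4a1 in a liver ran from -1.27 to -0.16 on the control diet and from 0.09 to 1.63 on the krill diet. It differed by 1.37 (exact permutation test p = 0.000583, adjusted p = 0.0016) and by 1.10 without the bright arrays (exact test, adjusted p = 0.0229), so the signal of the second step fell further than that of the first. Oat, the ornithine aminotransferase that joins the same intermediate, varied from 6843 to 22886 in signal among control livers and was not called (log2 change -0.41, SE 0.27, adjusted p = 0.221).

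Both enzymes that carry homocysteine to cysteine were lower, with unequal support. Cbs, the heme-containing cystathionine synthase, had a signal of 1834, 3019 and 4451 on control arrays and 711, 1121 and 1797 on krill arrays. The highest krill liver stayed just below the lowest control liver. Cbs fell 2.47-fold (log2 change -1.30, SE 0.23, adjusted p = 0.000234) and by 0.94 without the 4 bright arrays (adjusted p = 0.0105), and its second probe set fell by 1.59. Cth, which splits cystathionine, read from 5775 to 9234 on the 4 bright krill arrays and from 17225 to 27516 on the other 3 krill arrays, where the control range was 18874 to 26742. Its fall of 0.87 (SE 0.30, adjusted p = 0.0245) was lost without krill replicate 2, 4, 5 or 7 (changes of -0.69 to -0.80, adjusted p from 0.0511 to 0.0572), and without all 4 of them the value was 0.05 (adjusted p = 0.866). The ratio of Cbs over Cth differed by -0.44, which did not pass the threshold (exact permutation test, adjusted p = 0.225). It differed by -0.99 without the 4 bright arrays (exact test, adjusted p = 0.0786) and by -0.054 under quantile normalization.

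Lysine degradation was represented by Aass, the double enzyme that starts the saccharopine route, which was not called. Its median signal was 8816 on control and 8095 on krill arrays (log2 change -0.28, SE 0.18, adjusted p = 0.210).

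Among the branched-chain enzymes 5 of 8 fell, 1 rose and 2 were not called. The E1 component of the branched-chain keto acid dehydrogenase, the committed step, is built from the products of Bckdha and Bckdhb, and these changed unequally. Bckdha had a mean signal of 5479 ± 404 on control and 4825 ± 1144 on krill arrays (log2 change -0.21, SE 0.16, adjusted p = 0.270). Bckdhb went from 8755 ± 1371 to 4807 ± 2457 and fell by 1.02 (SE 0.27, adjusted p = 0.0052), with 6 krill livers below all controls. Without the 4 bright arrays the Bckdhb change was -0.28 (adjusted p = 0.182). The ratio of Bckdha over Bckdhb differed by 0.81 (exact permutation test p = 0.0017, adjusted p = 0.0038), by 0.40 without the bright arrays (exact test, adjusted p = 0.0786), and missed the threshold when arrays of the same replicate number were paired (exact test, adjusted p = 0.0573).

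In the leucine branch, Ivd, the flavin dehydrogenase of isovaleryl-CoA, fell 2.40-fold from a median signal of 3072 to 1393 (log2 change -1.26, SE 0.29, adjusted p = 0.0019). Mccc1, the biotin-carrying subunit of methylcrotonyl-CoA carboxylase, fell by 0.88 (SE 0.20, adjusted p = 0.0015) from a mean signal of 2120 ± 289 to 1186 ± 358. Without the bright arrays the change was -0.60 for Ivd (adjusted p = 0.0277) and -0.80 for Mccc1 (adjusted p = 0.0021). Auh, the hydratase of the following step, fell by 0.53 (SE 0.18, adjusted p = 0.0229), was not called without krill replicate 5 (-0.45, adjusted p = 0.0549) or with its dimmer probe sets averaged in (-0.023, adjusted p = 0.909), and was at -0.20 without the 4 bright arrays (adjusted p = 0.208). The ratio of Mccc1 over Auh differed by -0.35 (exact permutation test, adjusted p = 0.225), by -0.53 without krill replicate 5 (exact test, adjusted p = 0.0476), by -1.46 with all probe sets averaged (exact test, adjusted p = 0.0077) and by -0.59 without the 4 bright arrays (exact test, adjusted p = 0.0367).

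In the valine branch Hibadh, which oxidises 3-hydroxyisobutyrate, rose. Its signal was 20710, 22190 and 29015 on control arrays and 31996, 47407 and 63445 on krill arrays, without overlap. The rise was 1.89-fold (log2 change 0.92, SE 0.17, adjusted p = 0.000307), 0.59 without the 4 bright arrays (adjusted p = 0.0068) and 0.13 with spike-in scaling (adjusted p = 0.598). Its second probe set rose by 0.68. Pcca, the biotin-carrying subunit of propionyl-CoA carboxylase, into which valine, isoleucine, methionine and threonine drain, had a signal of 3130, 3705 and 4232 on control arrays and 1001, 1751 and 3083 on krill arrays. The diets did not overlap and Pcca fell 2.15-fold (log2 change -1.11, SE 0.23, adjusted p = 0.000829), and by 0.50 on the log2 scale without the 4 bright arrays (adjusted p = 0.0133). Pccb, the other subunit, had a median signal of 3102 and 2643 (log2 change -0.22, SE 0.16, adjusted p = 0.254).

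The ratio of Pcca over Pccb within a liver ran from 0.01 to 0.49 on the control diet and from -1.06 to -0.12 on the krill diet. It differed by -0.88 (exact permutation test p = 0.000583, adjusted p = 0.0016) and by -0.57 without the bright arrays (exact test, adjusted p = 0.0229). Averaging in the second Pcca probe set, which was above the receptor background on 0 arrays, turned this ratio to 0.27 (exact test, adjusted p = 0.492).

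**Figure D2:**
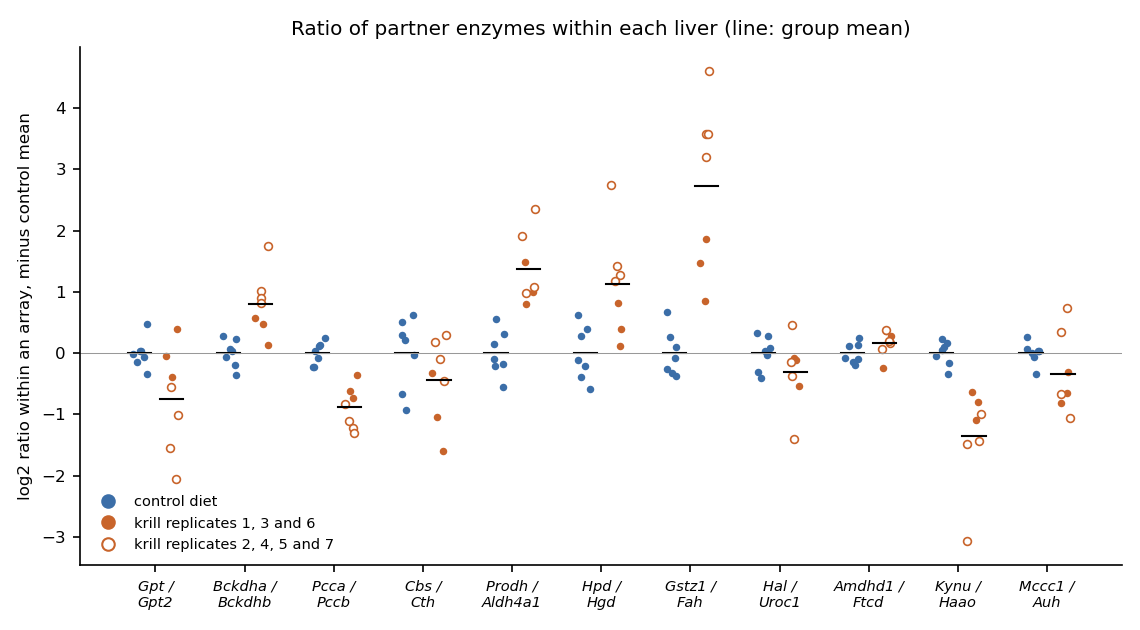
Log2 ratio of the signals of partner enzymes (paralogs, subunits of one complex or consecutive steps) within each liver, minus the control mean of that ratio, with 1 point per mouse and a line at each group's mean. The krill and control livers do not overlap for Pcca over Pccb, Prodh over Aldh4a1, Gstz1 over Fah and Kynu over Haao; Pcca over Pccb turns to 0.27 when all probe sets of a gene are averaged.

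Of 11 such pairs, 6 passed the test over all arrays and 5 without the 4 bright ones. The share of other gene pairs that pass was not counted, so these counts have no like share beside them. Of all single genes tested, 24.8% fell and 22.9% rose over all arrays. A ratio taken within an array is not moved when all signals of that array are multiplied by a common factor, apart from the constant of 16 added to each signal. Quantile normalization is not such a factor and can move a ratio. Under it 10 of the 11 pairs kept their result and 1, Amdhd1 over Ftcd, became stronger. No quality covariate was fitted to the pair ratios. The part of the quality difference between the diets in these ratios was therefore not tested. Of the pairs not yet given, Gpt over Gpt2 differed by -0.74 (exact permutation test, adjusted p = 0.0687); it passed without krill replicate 3 (-0.93, adjusted p = 0.0064) or krill replicate 1 (-0.86, adjusted p = 0.0385) and was -0.01 without the bright arrays. The ratio of Amdhd1 over Ftcd was 0.17 higher on the krill diet (exact test, adjusted p = 0.155), and passed without krill replicate 3 (0.24, adjusted p = 0.0240) and under quantile normalization (0.47, adjusted p = 0.0043).

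The 4 krill arrays of bright spike-ins carried the larger changes. The median deviation of the 31 enzymes from their control means was -1.26, -0.79, -0.66 and -0.58 in log2 units on krill replicates 2, 4, 5 and 7, and -0.08, -0.20 and -0.33 on krill replicates 1, 3 and 6, with control arrays between -0.08 and 0.06. Without the 4 bright arrays 5 enzymes rose and 9 fell (29.0%), where 12.7% of all genes rose and 19.6% fell, and the median was -0.20 for the enzymes and -0.04 for all genes. The 5 risers were the same genes, and the 9 that fell were Got1, Fah, Hal, Uroc1, Aldh4a1, Cbs, Ivd, Mccc1 and Pcca. All 22 called enzymes had a smaller change in size without those arrays. With the spike-in level as a covariate, limma called 3 enzymes higher (Agxt, Gstz1 and Hibadh) and 3 lower (Hal, Aldh4a1 and Cbs). In that fit 790 of all 11308 genes were higher and 1188 lower. Its median was -0.14 for the enzymes and -0.06 for all genes, so the excess of falls among the enzymes was not kept.

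**Figure D3:**
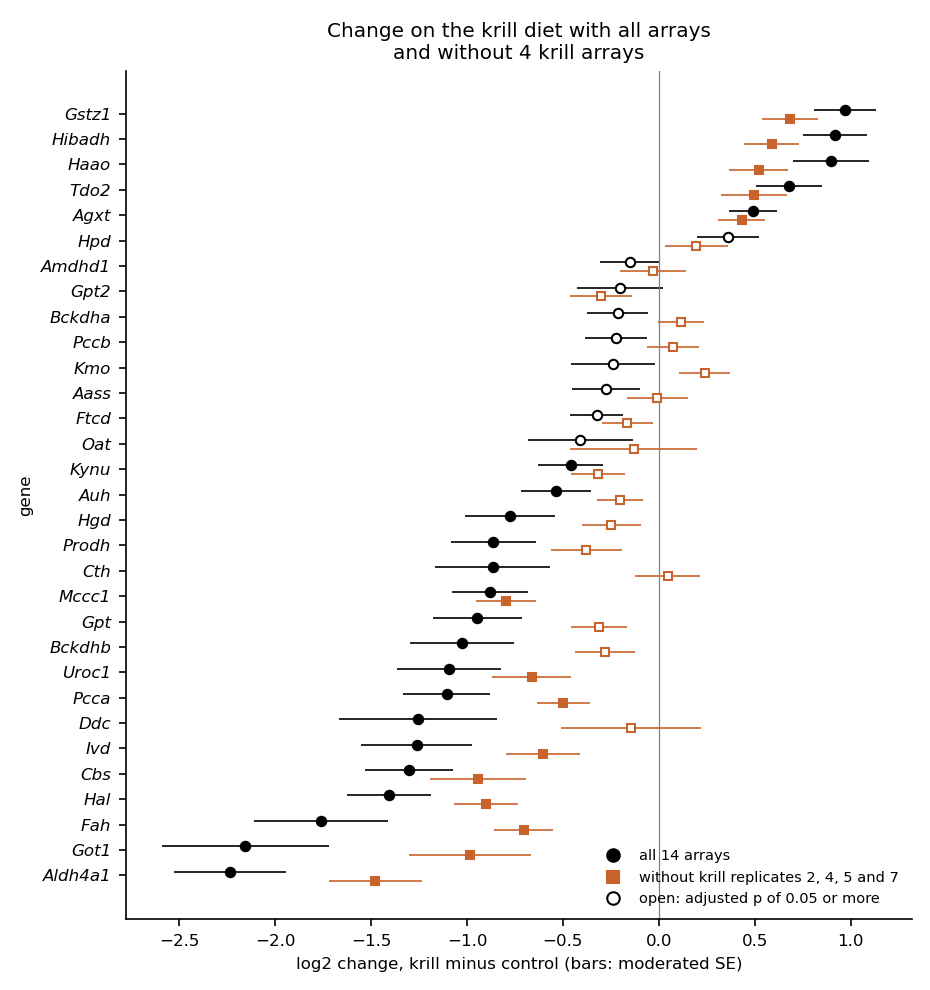
Log2 change of each enzyme, krill minus control, with its moderated standard error, over all 14 arrays (black circles) and without krill replicates 2, 4, 5 and 7 (orange squares); open symbols have an adjusted p of 0.05 or more. The 22 called enzymes lie nearer to 0 in the second fit or, for Cth, past it, while Gpt2, which was not called, moves from -0.20 to -0.30 and Kmo from -0.24 to 0.24; Cth moves from -0.87 to 0.05; among the higher genes Agxt turns to -0.30 and Tdo2 to -0.11 with spike-in scaling.

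Enzymes with several probe sets gave a check on direction within a gene. In 11 enzymes more than 1 probe set was tested, and none of the 11 had probe sets called in both directions. Both probe sets of Cbs, Ivd, Mccc1, Hgd, Uroc1 and Hibadh were called in the direction of the gene. The second probe set changed by -1.41 for Ivd, -1.62 for Mccc1 and -1.55 for Hgd. That probe set stood above the receptor background on 10 of 14 arrays for Ivd and on 9 for Mccc1, Hgd and Uroc1. For Cbs it did so on 12 arrays and for Hibadh on all 14. Auh was the one enzyme with both signs, from -0.53 to 0.65, and its positive probe sets were not called. Gpt's second probe set was at -0.05 (adjusted p = 0.942) and stood above the receptor background on 7 arrays.

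**Figure D4:**
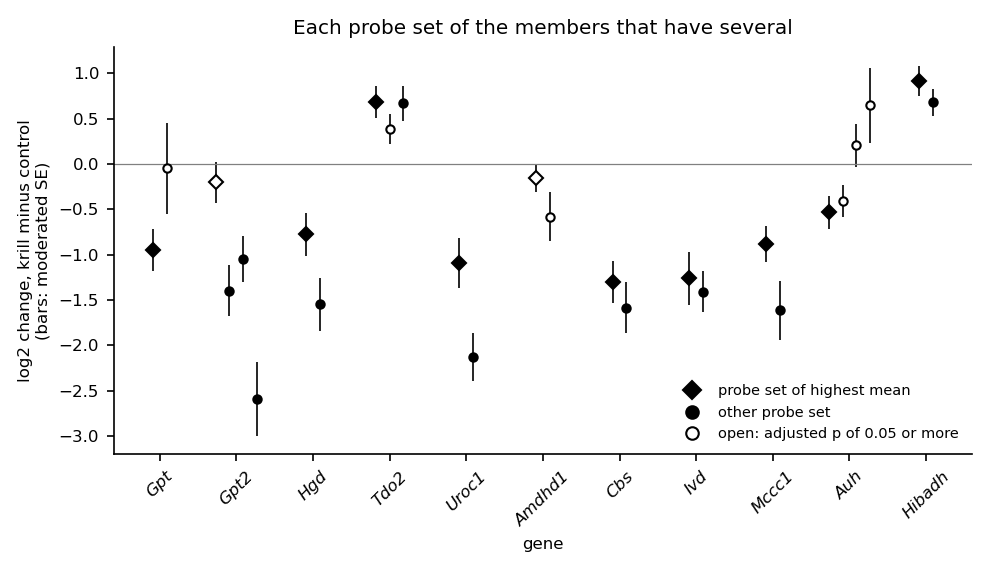
Log2 change, krill minus control, with its moderated standard error, for every tested probe set of the 11 enzymes that have several; diamonds mark the probe set of highest mean and open symbols an adjusted p of 0.05 or more. The brightest Gpt2 probe set is at -0.20 while its other 3 are at -1.40, -1.05 and -2.59; the Tdo2 rise is not kept under quantile normalization (-0.02).

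By cofactor, 6 of the 9 pyridoxal phosphate enzymes fell, 1 rose and 2 were not called, with a median of -0.87. Of the 22 others, 11 fell, 4 rose and 7 were not called, with a median of -0.43. When the 4 bright arrays were left out, 2 of the 9 fell and 1 rose (median -0.30), and of the 22 others 7 fell and 4 rose (median -0.18), so the larger share of falls changed sides. By compartment, 10 of 16 cytosolic enzymes fell and 3 rose (median -0.82), and 7 of 14 mitochondrial enzymes fell and 1 rose (median -0.47). Without the bright arrays the order of the medians turned, with 5 cytosolic enzymes lower and 3 higher (median -0.21) and 4 mitochondrial ones lower and 1 higher (median -0.24). Both biotin-carrying subunits on the list, those of Mccc1 and Pcca, fell.

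Beyond the listed enzymes, 104 other genes of these pathways were examined, of which 84 were tested. Of those, 38 fell (45.2%, beside 24.8% of all genes) and 21 rose (25%, beside 22.9%), with a median of -0.40. With the 4 bright arrays left out, 19 fell (22.6%, beside 19.6%) and 22 rose (26.2%, beside 12.7%), with a median of -0.06. The same shares of all genes apply beside the count of each single list. In the phenylalanine and tyrosine list 6 of 9 rose and 2 fell, and without the bright arrays 5 rose and the falls were lost (1 was lower at an unadjusted p under 0.05, limma). The risers included Gchfr, which restrains tetrahydrobiopterin synthesis (log2 change 1.33, adjusted p = 4.1e-05), and Dnajc12, a co-chaperone of the aromatic amino acid hydroxylases (1.25, adjusted p = 6.6e-05). In the tryptophan list 3 of 5 fell and 2 were not called (3 lower and 1 higher without the bright arrays), with Afmid, the formamidase that acts between Tdo2 and Kmo, at -2.12 (adjusted p = 4.0e-05) and Ido2 at -1.49 (adjusted p = 0.0012). The mean signal of Ido2 was 548 ± 241 on control and 187 ± 105 on krill arrays, where the receptor background was 110 to 551. Afmid fell, like Kynu, on a route whose first enzyme Tdo2 rose (but was at -0.02 under quantile normalization).

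In the list of other aminotransferases and glutamate enzymes 5 of 7 fell and 2 were not called, including Kyat1 (-1.15, adjusted p = 0.000133) and Kyat3 (-1.26, adjusted p = 0.0014), which transaminate kynurenine. Without the bright arrays 2 of the 7 fell, and Kyat3 was not called (-0.69, adjusted p = 0.0507). In the lysine list 8 of 11 fell and 3 were not called, with a median of -0.69, and without the bright arrays 3 fell and 2 rose, with a median of -0.15. The genes that fell included Hykk, the hydroxylysine kinase, at -1.14 (adjusted p = 0.0011), and Crym, a ketimine reductase, at -0.71 (adjusted p = 0.0020). Crym had a mean signal of 488 ± 58.9 on control and 294 ± 51.2 on krill arrays, where the receptor background was 110 to 551. In the branched-chain list 7 of 18 fell and 5 rose, and without the bright arrays 5 fell and 6 rose. Hlcs, the ligase that attaches biotin to carboxylases such as those of Mccc1 and Pcca, fell by 1.57 (adjusted p = 0.000165), and Mcee, the epimerase after propionyl-CoA carboxylase, rose by 1.03 (adjusted p = 0.000239). The mean signal of Hlcs was 464 ± 111 on control and 156 ± 80.9 on krill arrays, where the receptor background was 110 to 551. The size of its fall is therefore limited by signal. In the proline and hydroxyproline list 3 of 6 fell and 1 rose (2 and 1 without the bright arrays), with Prodh2, the hydroxyproline dehydrogenase, at -1.33 (adjusted p = 0.000689) and Pycrl, a pyrroline-5-carboxylate reductase that works towards proline, at 1.27 (adjusted p = 0.000138).

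In the sulfur list 5 of 14 rose and 5 fell, but without the bright arrays 4 rose and every fall was lost (1 was lower at an unadjusted p under 0.05, limma). The risers included Gnmt, which uses S-adenosylmethionine to methylate glycine, at 1.07 (adjusted p = 0.000279) and Sqor, which oxidises sulfide, at 0.84 (adjusted p = 0.000931). In the serine, glycine and threonine list 4 of 10 fell and 2 rose (3 and 1 without the bright arrays), with Sardh, the sarcosine dehydrogenase that returns the product of Gnmt to glycine, at -1.85 (adjusted p = 5.1e-05) and Glyctk, the glycerate kinase, at -1.67 (adjusted p = 4.6e-05). In the histidine list 2 of 4 rose and 1 fell, with or without the bright arrays, with Hnmt, which methylates histamine, at 1.08 (adjusted p = 0.000289) and Aldh1l1, which oxidises formyl-tetrahydrofolate, at -1.28 (adjusted p = 0.000519).

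Markers of hepatocytes and of other cells moved as well. Of 8 general hepatocyte markers 5 rose and 3 were not called, with a median of 0.53. All 5 rises were lost without the 4 bright arrays (1 was higher at an unadjusted p under 0.05, limma) and the median was 0.23. Of 10 markers of periportal hepatocytes that are not on the list, 7 fell and 1 rose, with a median of -0.69, and without those arrays 5 fell and 1 rose. Their summed signal was 155370 to 179760 on control and 118580 to 205610 on krill arrays. Of 10 pericentral markers 2 fell and 1 rose (3 and 1 without those arrays), and their summed signal was 94177 to 132160 on control and 109780 to 166580 on krill arrays. The part of a shift between zones in the changes of the enzymes was not tested.

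Among the markers of other cells, those of Kupffer cells had 2 higher and 2 lower of 7 (2 and 1 without the bright arrays), with summed signals of 7173 to 9605 on control and 8493 to 16415 on krill arrays. Endothelial markers had 1 higher and 1 lower of 8 in both fits, with sums of 11417 to 14479 and 9311 to 21500, and stellate cell markers 2 higher and 3 lower of 8 (1 and 2 without the bright arrays), with sums of 16717 to 22028 and 14966 to 21093. Pancreatic acinar markers summed to 2695 to 5142 on control and 6200 to 19349 on krill arrays, mostly through Cela1, which rose by 1.31 (adjusted p = 0.000368), and 2 of their 4 genes were above the receptor background on no array. Kidney tubule markers summed to 244 to 428 on control and 289 to 1242 on krill arrays, lymphocyte markers to 660 to 987 and 874 to 2045, and cholangiocyte markers to 285 to 459 and 258 to 847. Of these, 2 of 5 kidney, 3 of 8 lymphocyte and 3 of 6 cholangiocyte genes were above the receptor background on no array. That background itself was 99.1 to 131 on control and 110 to 551 on krill arrays. The part of these cells in the changes of the enzymes was not tested.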

How the data were processed

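Liver total RNA of 14 mice was labelled with biotin and hybridised to 1 Affymetrix mouse array per animal, per the labels. The deposited table holds linear intensity values, 1 for each probe set, made with MAS5 per the submitters' processing notes (version not given in the sources used here); the trimmed mean of every array is 500. The array's precision is limited by 7 arrays per diet. Detection calls and scanner files were not used here, so the background was the 95th percentile of 78 olfactory and vomeronasal receptor probe sets on each array.

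The titles gave each sample's diet and replicate number; every number names a different mouse, and the deviations of arrays with the same number correlated between -0.02 and 0.10, so arrays were not paired. Of 45101 probe sets, 64 were controls, 34945 had 1 gene symbol, 932 several and 9160 none in the platform's table. Values were log2(signal + 16), which understates the folds of dim genes. The 50% of probe sets of higher mean (22518) were kept, the brightest per gene giving 11308 genes, and all 31 enzymes with a probe set passed. Diet was fitted with limma 3.58.1 in R 4.3.3 (lmFit, eBayes with trend), 14 arrays, no covariate, Benjamini-Hochberg over all genes and a threshold of 0.05. Log2 changes are krill minus control with moderated SEs. Pair ratios and quality measures were compared with exact permutation tests in Python 3.11.15 (scipy 1.17.1). For the 3′/5′ index, the log2 ratios of actin and of pyruvate carboxylase were averaged. The Gapdh ratio, which overlapped between the diets, was not part of that index. Fits were tested on simulated data of independent genes with the spread of the control livers in both diets. That simulation held no quality difference between the diets, so it does not bear on the one in these arrays.

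The enzymes, the other lists and the alternatives were chosen with earlier results of these data known. Named genes are all listed enzymes, and at most 2 genes past the threshold with the smallest p from each other pathway list; Cela1 was named after its values were seen. The alternatives were pseudocounts of 1 and 64, quantile normalization, median centring, other filters, averaged probe sets, no trend, array weights, a replicate block, each array left out, spike-in or 3′/5′ covariates, spike-in scaling and leaving out 4 krill arrays.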

Additional observations from a re-analysis of the deposited data

Results flagged for a closer look

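Each enzyme and each pair ratio was examined for a liver far from the rest of its diet group, over 84 groups of 7 arrays, and 3 stood out. Chance alone marks about 1 group in 20, so 3 of 84 is no more than chance gives. The brightest Gpt2 probe set had a log2 signal of 14.3 on krill replicate 7, where the other krill livers lay between 12.5 and 13.2. Kynu had a log2 signal of 10.4 on krill replicate 2, below the others at 11.1 to 11.5. The log2 ratio of Kynu over Haao was -5.11 on the same liver, where the others lay between -3.52 and -2.67.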

How the results depend on the processing

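The pseudocount, the filter, the trend and array weights changed no call of an enzyme. Median centring left 2 enzymes higher, with a median of -0.94. The spike-in covariate left 1978 genes called, 3 enzymes higher and 3 lower, with Cth at 0.055. The 3′/5′ covariate left 0 genes, 0 enzymes higher and 0 lower by limma (1 higher and 3 lower at an unadjusted p under 0.05), a median of -0.016, and turned Ddc to 0.62, Cth to 0.47, Bckdhb to 0.19 and Ivd to 0.041. Spike-in scaling left 0 enzymes higher, a median of -1.31, and turned Agxt to -0.30 and Tdo2 to -0.11. Quantile normalization turned Hpd to -0.31 and Tdo2 to -0.017. Without the 4 bright krill arrays 9 enzymes were lower and Cth was at 0.045. Averaging a gene's probe sets turned the ratio of Gpt over Gpt2 to 0.81 (exact test, adjusted p = 0.0235) and of Pcca over Pccb to 0.27. The cause of each was not tested.

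Leaving out 1 array gave 4680 to 6147 genes called, 5 to 6 enzymes higher, 14 to 18 lower and a median of -0.61 to -0.44. With the replicate number as a replicate block 5253 genes were called, with 6 enzymes higher (Hpd was added, adjusted p = 0.0445) and 17 lower, and the ratio of Bckdha over Bckdhb missed the threshold; the numbers name separate mice. No filter on signal gave 3720 genes higher and 2729 lower. Got1 and Ddc, which were not above the receptor background on every array, are limited by signal.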

Other observations

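Genes for hormone receptors, transcription factors and coactivators known to control amino acid catabolism were also examined. Of 13 tested, 7 fell and 2 rose (limma; over all genes 24.8% fell and 22.9% rose), with a median log2 change of -0.56. Without the 4 krill arrays of bright spike-ins 7 fell and 1 rose (19.6% and 12.7% over all genes), with a median of -0.57. Ppara, the nuclear receptor that responds to fatty acids, went from a mean signal of 9831 ± 1475 to 2974 ± 1944 (SD, n = 7 each), which is -1.93 on the log2 scale (SE 0.28, adjusted p = 5.5e-05) and -1.18 without those arrays (adjusted p = 0.0016). Cebpb, a factor that binds the C/EBP core, went from 6869 ± 2681 to 2096 ± 1002 (log2 change -1.76, SE 0.27, adjusted p = 9.5e-05).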
